A study of Mus musculus with 3 samples.

Results

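The metalloproteinases Mmp9, Mmp12, Mmp13 and Mmp14, the metalloproteinase inhibitor Timp2, the matricellular proteins Thbs1 and Sparc, the matrix glycoprotein Fn1 and the cross-linking enzyme F13a1 were followed in single cells sorted from mouse hearts. These 9 genes were taken by symbol, and all 9 lie among the 30406 genes that the 3 libraries of the study share. Wild type mice of 32 to 34 weeks had been kept on a high fat diet (HFD), a Western diet (WD) or a control diet (CD), and each diet is represented by 1 library. Heart tissue had been digested with collagenase, and live cells carrying CD11b, F4/80 and CD45, surface proteins by which macrophages are selected, were sorted before droplet sequencing of transcript 3′ ends. All groups therefore share the wild type genotype, the digestion and the sort. How many mice a library holds, and what the diets contained and how long they lasted, is not given by the labels. A difference between diets therefore rests on single libraries and has no replicate behind it.

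Macrophages remodel the extracellular matrix by secreting enzymes that cleave it, inhibitors of these enzymes, and proteins that build, bind or cross-link it. Matrix metalloproteinases are zinc-dependent proteases that are mostly made as inactive precursors, and TIMP proteins bind them and block their active site. In the heart, resident macrophages that carry Lyve1, a hyaluronan receptor, renew themselves largely in place, while Ccr2-positive macrophages are replenished from blood monocytes.

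A barcode was kept as a cell if it had 1000 or more unique molecular identifiers (UMIs, distinct captured transcripts), 200 or more genes and no more than 10% of UMIs from mitochondrial genes. This left 2717 HFD, 4775 WD and 2679 CD cells with medians of 2751, 11668 and 4223 UMIs. Cells in which the complement genes C1qa, C1qb and C1qc made up at least 0.3% of UMIs are called C1q-high, and they numbered 2002 in HFD, 3721 in WD and 2293 in CD. At least 1 UMI of each of the 12 macrophage markers examined was found in the summed C1q-high cells of each library. C1qa, C1qb and C1qc, which define these cells, are among the 12. Csf1r was found in 86.0% of HFD, 98.8% of WD and 93.1% of CD C1q-high cells, and Fcgr1 in 36.4%, 51.7% and 48.3%. Within 0.1 percentage points of the 0.3% limit the HFD library had 6 cells above and 19 below it, the WD library 237 and 197, and the CD library 12 and 15. In those WD cells just inside the limit Fn1 stood at 255 and Mmp12 at 195 CPM (UMIs per 1000000), against 470 and 266 just outside it. The HFD and CD libraries shared 15 cell barcodes, the WD and CD libraries 1 and the WD and HFD libraries 0. The WD library stands apart: it was made with another version of the alignment software, it is several times deeper, and only 1.26% of its cell barcodes are among those listed for HFD and CD.

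Levels are given in CPM, the UMIs of a gene per 1000000 UMIs summed over the cells of a group, with exact Poisson intervals at 95% that cover counting error only. The 3′ assay counts a captured transcript once whatever its length, and fewer expressing cells and fewer transcripts per cell cannot be told apart in a summed level. In C1q-high cells F13a1 stood at 973 CPM in HFD, 2827 in WD and 1131 in CD, and Timp2 at 856, 461 and 922. The other 7 genes stayed between 1.97 and 102 CPM in every library. With every cell thinned to 1000 UMIs, which left out no cell, F13a1 was detected in 49.7% of HFD, 77.4% of WD and 57.0% of CD C1q-high cells, against 1404 of 2002, 3535 of 3721 and 1854 of 2293 cells without thinning. In endothelial cells, which should lack it, the thinned share was 2.77% in HFD (506 cells, median 1814 UMIs) and 2.02% in CD (198 cells, median 2620 UMIs). Timp2 was detected in 52.4% of HFD, 35.2% of WD and 56.3% of CD thinned C1q-high cells, against 81.3%, 92.9% and 88.6% unthinned, and in 8.30% and 4.04% of the thinned endothelial cells of HFD and CD. Each of the other 7 genes was found in at most 4.80% of the thinned C1q-high cells of any library.

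**Figure D1:**
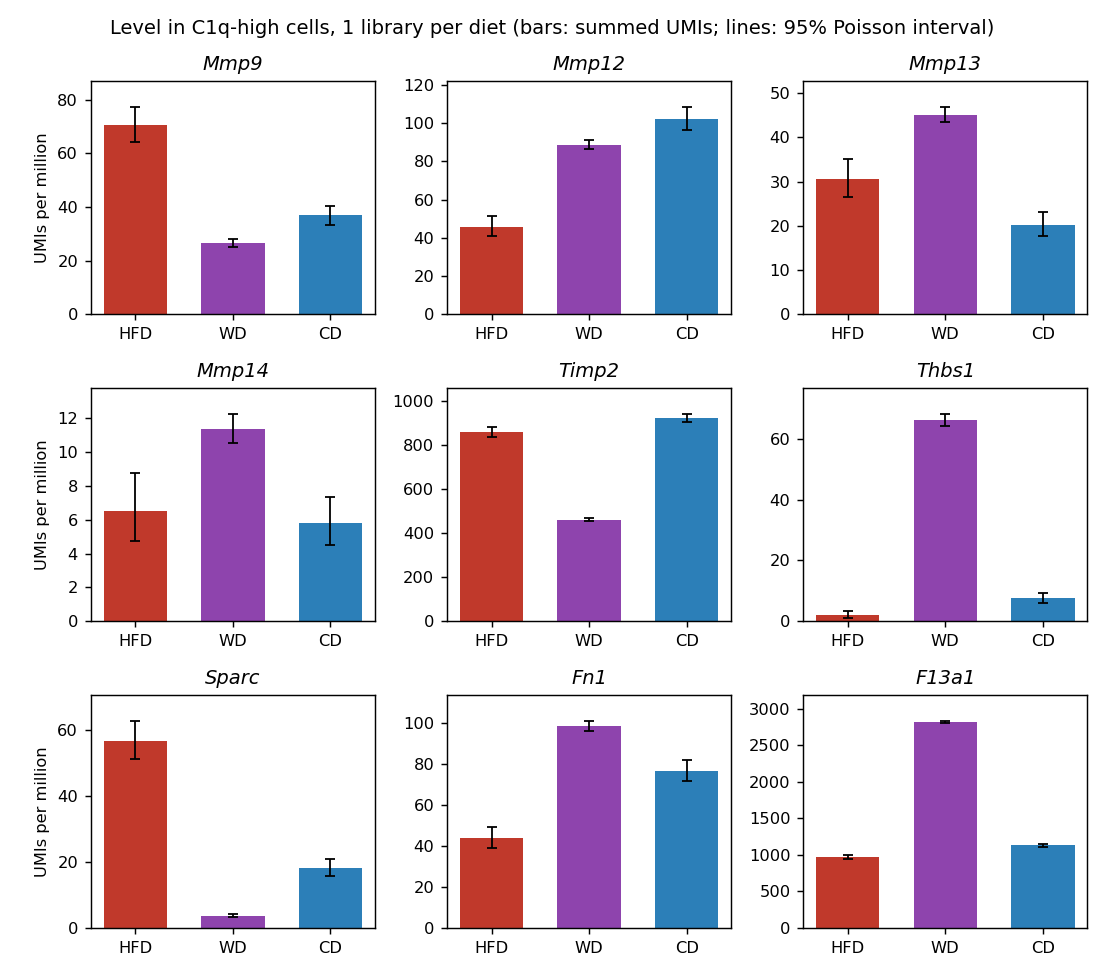
Level of each of the 9 genes in C1q-high cells (y axis, CPM, a scale of its own per panel) in the HFD, WD and CD libraries, with 1 library per diet. Bars are summed UMIs and lines 95% Poisson intervals; F13a1 reached 2827 CPM in WD, and Thbs1 stood at 66.3 there against 7.64 in CD.

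The C1q-high cells were split by whether a UMI of Lyve1, of Cd209f (a C-type lectin gene of resident macrophages), of Tmem119 (a membrane protein gene known from microglia) or of Ccr2 (the receptor of the monocyte chemoattractant CCL2) was found. Positive and negative cells were compared over the 3 libraries, which serve as replicates although they are of 3 diets, with edgeR's quasi-likelihood test, library as a term and Benjamini-Hochberg adjustment over all genes. Of the 9 genes, 3 rose and 4 fell in Lyve1-positive cells, where 7.58% of 10850 tested genes were higher and 6.78% lower. In Cd209f-positive cells 4 rose and 4 fell, against 2.84% higher and 3.58% lower of 10440 genes. In Tmem119-positive cells 2 rose and 2 fell, against 1.13% higher and 1.33% lower of 10916 genes. In Ccr2-positive cells 4 rose and 3 fell, against 7.35% higher and 7.84% lower of 10944 genes. Without the library term edgeR called 0 genes in each of the 4 splits, where 82 to 290 genes had an unadjusted p below 0.05. The splits overlap: 62.3% of HFD, 95.9% of WD and 75.3% of CD Cd209f-positive cells also had Lyve1, and 13.3%, 64.1% and 31.1% of Ccr2-positive cells had it. Cells in which a subset gene was found were deeper, with medians of 3716, 20030.5 and 5101 UMIs in Ccr2-positive cells against 2729, 11134 and 4110 in Ccr2-negative cells of HFD, WD and CD. For the split ratios in thinned cells below, positive and negative cells were set again from the thinned counts. A positive cell that lost its UMIs of the subset gene thus became negative. A weaker ratio or lost call there can reflect these changed groups as well as the lower depth.

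**Figure D2:**
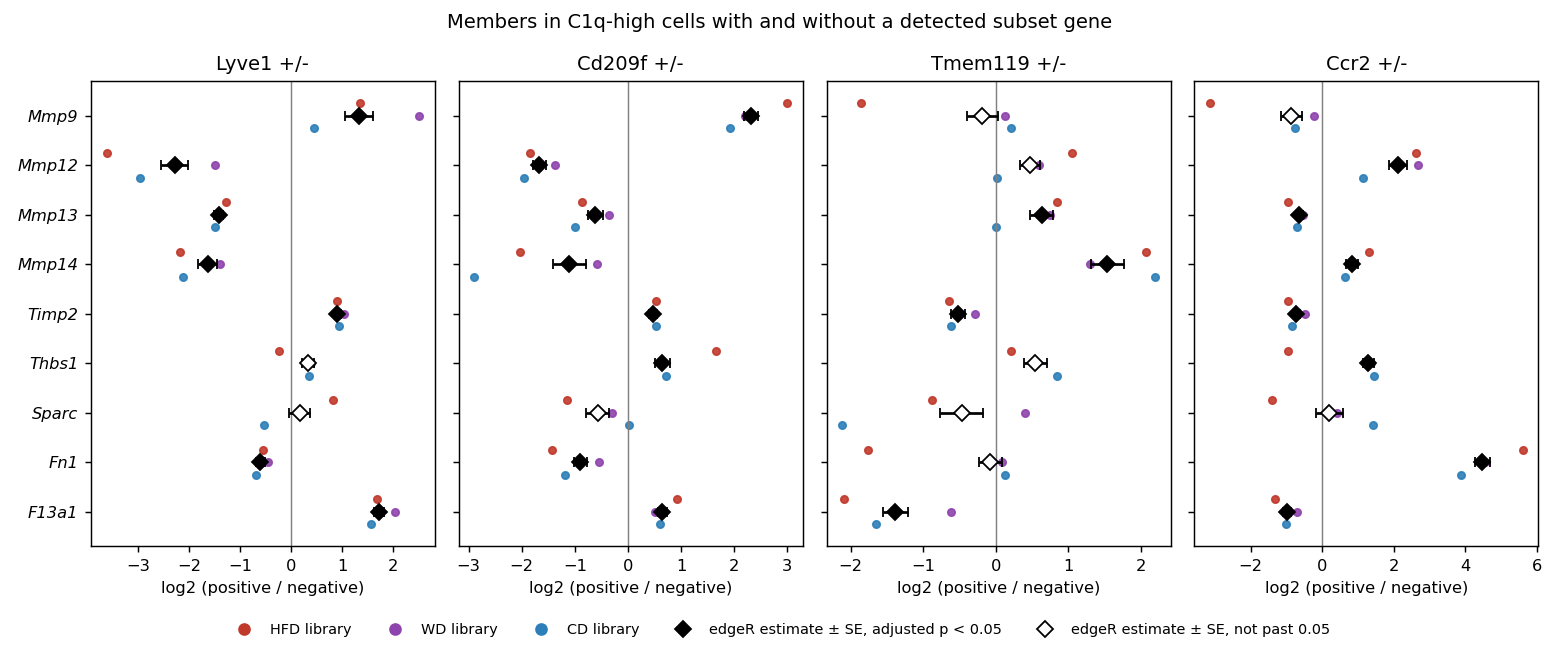
log2 ratio of CPM (x axis) between C1q-high cells with and without a UMI of Lyve1, Cd209f, Tmem119 or Ccr2, for each of the 9 genes (rows). Coloured points are the HFD, WD and CD libraries, diamonds the edgeR estimate ± SE over the 3 libraries, filled where the adjusted p is below 0.05; Fn1 has the ratio farthest from 0, 4.48 in the Ccr2 split.

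F13a1 encodes the A subunit of coagulation factor XIII, a transglutaminase that cross-links fibrin and fibronectin. It lies on chromosome 13 (36867178 to 37050244, minus strand of GRCm38) and has 176 kb of intron. Lyve1-positive cells held 1615, 3290 and 1594 CPM in HFD, WD and CD, against 500.1, 795 and 535 in Lyve1-negative cells. The positive and negative cells did not overlap in level between any libraries, and the difference was 1.72 ± 0.10 on the log2 scale (SE, n = 3 libraries, edgeR adjusted p = 5.34e-06). Tmem119-positive cells went the other way, with 240.3, 1909 and 376 CPM against 1026, 2930 and 1179 in Tmem119-negative cells (log2 ratio -1.38 ± 0.17, edgeR adjusted p = 0.00012). Near-empty barcodes (10 to 100 UMIs) held 364 CPM of F13a1 in HFD and 330 in CD. The HFD Tmem119-positive level thus lay below theirs and the CD level close to it. The WD library had 0 such barcodes, so this level could not be set there. F13a1 was also lower in Ccr2-positive cells of all 3 libraries, at 459, 2005 and 682 CPM against 1154, 3286 and 1385 in Ccr2-negative cells (log2 ratio -0.98 ± 0.11, edgeR adjusted p = 0.000317). In Cd209f-positive cells it was higher in every library, by 0.64 ± 0.08 on the log2 scale (edgeR adjusted p = 2.89e-05). With cells thinned to 1000 UMIs the Cd209f difference was 0.48, with an edgeR adjusted p = 0.917.

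Timp2, which blocks several metalloproteinases and also takes part in the activation of pro-MMP2 by MMP14, moved in the same directions as F13a1 in all 4 splits. The gene spans chromosome 11 (118301069 to 118355740, minus strand) with 50.8 kb of intron. Lyve1-positive cells held 1171, 509 and 1165 CPM in HFD, WD and CD, against 625, 248 and 610 in Lyve1-negative cells. It was thus close to 2-fold in each library, and the log2 ratio was 0.91 ± 0.07 (SE, n = 3 libraries, edgeR adjusted p = 2.76e-05). In Ccr2-positive cells Timp2 stood at 504, 366 and 615 CPM, against 981, 513 and 1096 in Ccr2-negative cells (log2 ratio -0.72 ± 0.09, edgeR adjusted p = 0.000847). Tmem119-positive cells were lower as well, by a log2 ratio of -0.52 ± 0.10 (edgeR adjusted p = 0.00602), although this call was lost without the HFD library (edgeR adjusted p = 0.196) and without the CD library (edgeR adjusted p = 0.0618). The rise in Cd209f-positive cells was smaller, 0.47 ± 0.08 (edgeR adjusted p = 0.000355), and in thinned cells it was 0.32 with an edgeR adjusted p = 0.961.

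Mmp9 encodes gelatinase B, which cleaves denatured collagens and basement membrane collagen. It lies on chromosome 2 (164940780 to 164955850, plus strand). Cd209f-positive cells held 261 CPM in HFD, 101 in WD and 91.5 in CD, against 32.7, 21.9 and 24.2 in Cd209f-negative cells. The levels did not overlap, and the difference was 5.00-fold (log2 ratio 2.32 ± 0.13, n = 3 libraries, edgeR adjusted p = 2.73e-10). In thinned cells the log2 ratio was 2.33 (edgeR adjusted p = 1.07e-09), and without C1q-high cells that carried other cells' markers it was 2.40. Cd209f-positive cells made up 10.5% of all HFD cells and held 60.3% of the Mmp9 UMIs of that library, while they made up 3.06% of WD cells with 20.5% and 14.1% of CD cells with 45.5%. Among the remaining cells, Lyve1-positive cells without Cd209f held 44.7, 25.9 and 28.2 CPM in HFD, WD and CD, and cells with none of the 4 subset genes held 42.7, 6.38 and 29.2. The HFD and CD values of these 2 groups nearly coincided, and the WD values did not. Split by Lyve1 alone, Mmp9 was 2.52-fold higher in positive cells (edgeR adjusted p = 0.00768). In thinned cells, classed by their thinned Lyve1 counts, the log2 ratio was 0.15 with an edgeR adjusted p = 0.795. In Ccr2-positive cells Mmp9 stood at 10.5, 24.0 and 25.5 CPM against 91.8, 28.0 and 43.3 in Ccr2-negative cells, a log2 ratio of -0.86 ± 0.30 that missed the threshold (edgeR adjusted p = 0.0864). It passed without the HFD library (-0.44, edgeR adjusted p = 0.021), without the WD library (-1.46, edgeR adjusted p = 0.0112) and in thinned cells (-2.23, edgeR adjusted p = 0.000451), and in 6 of 13 alternatives in all.

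Mmp12, the macrophage elastase, and Mmp13, a collagenase that cleaves fibrillar collagen, are neighbours on chromosome 9, with a gap of 61.0 kb and no other measured gene between them. Mmp13 spans 7272514 to 7283331 and Mmp12 7344381 to 7369499, both on the plus strand. AP-1, a dimer of Fos and Jun proteins, is a textbook regulator of metalloproteinase promoters through a site close to the start, so the RefSeq promoters of both genes (GRCm38.p6, from 250 bases before to 50 after the start) were searched on both strands for the letters TGANTCA, shown in capitals below. The Mmp13 window is chr9:7272264-7272563 and the window of the inner of the 2 Mmp12 starts is chr9:7347124-7347423.
Mmp13: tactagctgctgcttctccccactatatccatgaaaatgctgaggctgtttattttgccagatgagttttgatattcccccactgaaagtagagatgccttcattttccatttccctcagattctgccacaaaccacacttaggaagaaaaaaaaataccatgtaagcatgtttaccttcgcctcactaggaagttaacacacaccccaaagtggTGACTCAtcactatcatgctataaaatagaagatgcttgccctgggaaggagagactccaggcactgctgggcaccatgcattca
Mmp12: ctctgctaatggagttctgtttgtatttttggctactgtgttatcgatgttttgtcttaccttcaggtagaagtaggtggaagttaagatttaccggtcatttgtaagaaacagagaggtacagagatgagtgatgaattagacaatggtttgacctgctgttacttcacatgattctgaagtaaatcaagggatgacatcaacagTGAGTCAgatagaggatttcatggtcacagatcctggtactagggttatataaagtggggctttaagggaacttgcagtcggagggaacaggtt
The match lies 35 bases before the start in Mmp13 and 44 bases before it in Mmp12. The outer Mmp12 window (chr9:7344147-7344446) has no match, nor do the windows of the other 4 members with a RefSeq promoter. Of 32851 mouse promoters of the same length, 7.81% hold the motif. The match describes the letters only.

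Both genes fell in Lyve1-positive cells. Mmp12 stood at 6.07, 66.4 and 25.8 CPM in Lyve1-positive cells of HFD, WD and CD, against 75.0, 187 and 201 in Lyve1-negative cells. It was lower in each library, by 4.88-fold over the 3 (log2 ratio -2.29 ± 0.27, edgeR adjusted p = 0.000307). Without the WD library the log2 ratio was -3.12. Mmp13 stood at 16.8, 34.9 and 11.2 CPM in Lyve1-positive cells, against 40.8, 90.1 and 31.9 in Lyve1-negative cells. Its ratio was nearly the same in every library, a log2 ratio of -1.43 ± 0.09 (edgeR adjusted p = 9.39e-06). In Cd209f-positive cells Mmp12 was lower by a log2 ratio of -1.67 ± 0.12 (edgeR adjusted p = 1.89e-08) and Mmp13 by -0.62 ± 0.14 (edgeR adjusted p = 0.0108), a call lost without the CD library (adjusted p = 0.0956) and with DESeq2 (adjusted p = 0.137). In thinned cells the Cd209f ratios were -1.77 (edgeR adjusted p = 0.0989) and -1.03 (edgeR adjusted p = 0.747).

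In the Ccr2 split the neighbours moved in opposite directions. Mmp12 stood at 120.4 CPM in HFD, 193 in WD and 157 in CD Ccr2-positive cells, against 19.5, 30.3 and 71.7 in Ccr2-negative cells. The levels did not overlap, and the log2 ratio was 2.13 ± 0.25 (n = 3 libraries, edgeR adjusted p = 0.000496). The HFD Ccr2-negative value lay below the 32.6 CPM of HFD near-empty barcodes. Mmp13 stood at 18.0, 35.2 and 14.6 CPM in Ccr2-positive cells, against 35.1, 50.7 and 23.5 in Ccr2-negative cells (log2 ratio -0.63 ± 0.10, edgeR adjusted p = 0.00247, 0.273 in thinned cells and 0.0906 without the deepest 5% of cells). C1q-high cells with none of the 4 subset genes had the highest Mmp13 level of the C1q-high groups in HFD and CD, 56.1 and 47.5 CPM, and 106 in WD beside 112 in Tmem119-positive cells without Lyve1 or Cd209f. They held 51.2% of the Mmp13 UMIs of the HFD library, 19.8% of the WD and 41.6% of the CD library. In Tmem119-positive cells Mmp13 stood at 52.1, 71.2 and 20.4 CPM, against 29.1, 42.2 and 20.3 in Tmem119-negative cells. The CD values were the same, and the call in that split (log2 ratio 0.63 ± 0.15, edgeR adjusted p = 0.0305) was lost without the HFD library (adjusted p = 0.451), without the WD library (adjusted p = 0.488) and with DESeq2 (adjusted p = 0.483). Mmp12 in Tmem119-positive cells had a log2 ratio of 0.48 ± 0.14 (edgeR adjusted p = 0.0885), whose size and direction depended on the settings. It passed at 0.64 without the CD library (edgeR adjusted p = 0.00229), at 0.45 without a filter on low counts (edgeR adjusted p = 0.012) and at 2.08 with C1q-high cells taken from 1% of UMIs (edgeR adjusted p = 4.63e-05), and it was -0.20 when positive cells needed 2 UMIs of Tmem119.

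A few cells carried much of the Mmp12. The 1% of C1q-high cells richest in it held 54.6% of 302 UMIs in HFD (21 cells), 50.2% of 5318 UMIs in WD (38 cells) and 70.6% of 1167 UMIs in CD (23 cells). The richest cell had 26 UMIs in HFD, 261 in WD and 262 in CD. Mmp12 was not alone in this. The 1% of cells richest in Sparc held 71.1% of its UMIs in HFD, 49.1% in WD and 77.2% in CD, and Fn1 was alike, as given below. For F13a1 the shares were 7.06%, 6.08% and 5.47%.

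Mmp14 is a membrane-anchored metalloproteinase that cleaves collagen at the cell surface and activates pro-MMP2 (chromosome 14, 54431612 to 54445364, plus strand). It was scarce in C1q-high cells, with 43 UMIs in HFD, 682 in WD and 66 in CD. Tmem119-positive cells stood out, with 22.7, 24.5 and 21.9 CPM in HFD, WD and CD, against 5.36, 9.92 and 4.76 in Tmem119-negative cells. The positive values came from only 10, 148 and 15 UMIs, and the ratio had wide intervals in HFD (1.86 to 8.79) and CD (2.40 to 8.29). The 3 positive values lay close together and above all negative ones, and the difference was 2.91-fold (log2 ratio 1.54 ± 0.23, edgeR adjusted p = 0.000612, and 2.15 without the WD library). Lyve1-positive cells had 2.14, 8.74 and 2.34 CPM, from 6, 426 and 15 UMIs, against 9.74, 23.0 and 10.2 in Lyve1-negative cells (log2 ratio -1.64 ± 0.19, edgeR adjusted p = 0.000242). In Ccr2-positive cells Mmp14 was higher by 0.83 ± 0.17 on the log2 scale (edgeR adjusted p = 0.00932), which was lost without the WD library (adjusted p = 0.0736) and with DESeq2 (adjusted p = 0.0603). The fall in Cd209f-positive cells (log2 ratio -1.11 ± 0.31, edgeR adjusted p = 0.0345) rested on 2, 28 and 2 UMIs in those cells and passed in only 5 of 11 alternatives. It was lost without the CD library (edgeR adjusted p = 0.247), with RLE scaling (0.0565), at a higher minimum of UMIs per cell (0.0677), with a C1q level of 1% (0.0925), when positive cells needed 2 UMIs (0.342) and without the library term, and without the WD library the log2 ratio was -2.51 (edgeR adjusted p = 0.00105).

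Fn1 encodes fibronectin, a glycoprotein that links integrins to collagen and fibrin (chromosome 1, 71585520 to 71653200, minus strand). Of the 9 genes it separated Ccr2-positive from Ccr2-negative cells by the largest ratio. Ccr2-positive cells held 159 CPM in HFD, 255 in WD and 189 in CD, against 3.28, 10.8 and 12.9 in Ccr2-negative cells. The levels did not overlap, and the difference was 22.3-fold (log2 ratio 4.48 ± 0.20, n = 3 libraries, edgeR adjusted p = 1.2e-06). The Ccr2-negative values of HFD and CD lay below those of near-empty barcodes, 19.5 and 24.2 CPM. The 1% of C1q-high cells richest in Fn1 held 66.9% of its UMIs in HFD, 59.0% in WD and 45.4% in CD. Classed by Ccr2 detection in thinned cells, the log2 ratio was 2.37 (edgeR adjusted p = 8.72e-11). In Cd209f-positive cells Fn1 stood at 18.2, 68.6 and 37.8 CPM, against 49.1, 100.3 and 85.5 in Cd209f-negative cells (log2 ratio -0.90 ± 0.13, edgeR adjusted p = 0.000109, and 0.384 in thinned cells). Lyve1-positive cells were lower in each library, with 34.7, 91.9 and 60.3 CPM against 50.8, 127 and 97.5 in Lyve1-negative cells (log2 ratio -0.60 ± 0.08, edgeR adjusted p = 0.000825), but with C1q-high cells taken from 1% of UMIs the ratio was 0.18 (edgeR adjusted p = 0.526). The Tmem119 split gave a log2 ratio of -0.07 ± 0.16 (edgeR adjusted p = 0.977).

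Thbs1 encodes thrombospondin-1, a secreted glycoprotein that binds CD36 and CD47 and can activate latent TGF-β (chromosome 2, 118111876 to 118127133, plus strand). C1q-high cells had 13 UMIs of it in HFD, 3969 in WD and 87 in CD. The HFD level of 1.97 CPM was not above the 2.25 found in near-empty barcodes of that library (10 to 100 UMIs), so its HFD ratios between cell groups cannot be read. Ccr2-positive cells held 109 CPM in WD and 12.9 in CD, against 42.6 and 4.68 in Ccr2-negative cells. Without the HFD library the log2 ratio was 1.37 (edgeR adjusted p = 1.09e-10), and with it 1.29 ± 0.15 (edgeR adjusted p = 0.00047). The call was lost without the WD library (adjusted p = 0.0922) and with DESeq2 (adjusted p = 0.0655). In Cd209f-positive cells Thbs1 was higher by 0.64 on the log2 scale without the HFD library (edgeR adjusted p = 0.000172) and by 0.65 ± 0.14 with it (edgeR adjusted p = 0.00465), which was lost without the WD library (adjusted p = 0.207), with DESeq2 (adjusted p = 0.175), with a C1q level of 1% (adjusted p = 0.139) and without the deepest 5% of cells (adjusted p = 0.0524). The ratios in the Lyve1 split (0.33, edgeR adjusted p = 0.0979) and the Tmem119 split (0.55, edgeR adjusted p = 0.0882) missed the threshold. The Tmem119 ratio passed with a C1q level of 1% (1.46, edgeR adjusted p = 0.00116), without C1q-high cells past another class's level (0.74, edgeR adjusted p = 0.0279) and without the deepest 5% of cells (0.68, edgeR adjusted p = 0.0274). The Lyve1 ratio passed without C1q-high cells past another class's level (0.53, edgeR adjusted p = 0.0479) and when positive cells needed 2 UMIs (0.43, edgeR adjusted p = 0.0319), and was -0.02 without the deepest 5% of cells.

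Sparc encodes osteonectin, a collagen-binding matricellular protein (chromosome 11, 55394500 to 55423183, minus strand), and it passed the test in none of the 4 splits. Lyve1-positive cells held 75.8, 3.81 and 15.1 CPM in HFD, WD and CD, against 42.6, 3.42 and 21.9 in Lyve1-negative cells (log2 ratio 0.17 ± 0.21, edgeR adjusted p = 0.692). Ccr2-positive cells held 25.6, 4.47 and 30.1 CPM, against 67.7, 3.33 and 11.3 in Ccr2-negative cells (log2 ratio 0.20 ± 0.37, edgeR adjusted p = 0.807). In both splits the HFD and CD libraries went opposite ways. The Cd209f split gave -0.57 ± 0.21 (edgeR adjusted p = 0.135) and the Tmem119 split -0.46 ± 0.30 (edgeR adjusted p = 0.672). Leaving out a library let Sparc pass in 3 splits: Cd209f without WD (-0.62, edgeR adjusted p = 0.0232) or without CD (-0.98, edgeR adjusted p = 0.0184), Tmem119 without WD (-1.19, edgeR adjusted p = 0.0151) and Ccr2 without HFD (0.90, edgeR adjusted p = 0.00111). In HFD and CD the C1q-high level was below that of near-empty barcodes, 56.7 against 109.9 in HFD and 18.1 against 42.5 in CD. Of the HFD C1q-high cells, 40 also passed the level set for endothelial cells and held 38.0% of the 374 Sparc UMIs, and 2 passed that for fibroblasts and held 37.4%. In CD 18 cells passed the endothelial level and held 63.6% of 206 Sparc UMIs, while in WD 0 cells did.

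Cells below the C1q level were grouped by their markers. S100a8-high cells numbered 1 in HFD, 72 in WD and 8 in CD, endothelial cells 506, 1 and 198, fibroblasts 11, 36 and 44, and other C1q-low cells 197, 945 and 136. The sort selected for CD45, which Ptprc encodes. Ptprc was found in 1.19% of HFD and 2.53% of CD endothelial cells and in 0%, 19.4% and 2.27% of fibroblasts in HFD, WD and CD, against 43.3%, 98.6% and 49.9% of C1q-high cells. In WD fibroblasts Mrc1, a macrophage marker, was found in 44.4% of cells. These levels are descriptions, with 1 library per diet and classes set by a threshold.

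Sparc was abundant in both stromal classes. Endothelial cells held 2074 CPM in HFD and 2506 in CD, and fibroblasts 2945, 2163 and 2199 in HFD, WD and CD. All of these values lay far above the 56.7, 3.74 and 18.1 of C1q-high cells. Mmp14 was also higher in fibroblasts, at 270.4, 197 and 107 CPM from 9, 109 and 18 UMIs, than in C1q-high cells, where it stood at 6.52, 11.4 and 5.79. Timp2 in fibroblasts (1112, 731 and 1097 CPM) was of the same order as in C1q-high cells, and in endothelial cells it was 98.9 in HFD and 44.1 in CD. Mmp12 had 0 UMIs in the fibroblasts of each library, which allows up to 90.1, 5.41 and 17.9 CPM in HFD, WD and CD at 3 counts per library.

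Thbs1 was highest in WD S100a8-high cells, at 1925 CPM (1800 to 2057), where 49 of 72 cells carried it. WD fibroblasts followed with 366, and WD C1q-high cells had 66.3. Only 1 and 8 such S100a8-high cells were found in HFD and CD, and the CD cells held 1 Thbs1 UMI. Mmp9, which neutrophils store in granules, stood at 306 CPM in WD and 433 in CD S100a8-high cells (139 and 9 UMIs), above every C1q-high group of the same library. In WD the 70 C1q-high cells that also passed the S100a8 level held 20.8% of the Thbs1 and 11.7% of the Mmp9 UMIs of C1q-high cells, while they made up 1.88% of those cells.

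In the summed other C1q-low cells of each library, 12 of 12 macrophage and 8 of 8 dendritic markers had at least 1 UMI. Such a tally does not name the type of these cells. Csf1r was found in 42.6% of them in HFD, 63.0% in WD and 55.1% in CD. Other C1q-low cells had the highest Fn1 level of all classes in HFD, WD and CD, 171, 570.0 and 266 CPM. C1q-high cells stood at 44.0, 98.4 and 76.6. Mmp12 was likewise higher in other C1q-low cells, at 152, 239.9 and 294 CPM against 45.8, 88.8 and 102 in C1q-high cells. These cells are mixed: summed mural markers reached 3122 CPM in HFD, and summed erythroid markers 3651 in WD and 10691 in CD. F13a1 was lower there, at 64.8, 964 and 91.4 CPM, against 973, 2827 and 1131 in C1q-high cells, and the WD value stood well above those of HFD and CD. Mmp13 was at 2.23, 27.4 and 0 CPM, with 2, 292 and 0 UMIs.

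**Figure D3:**
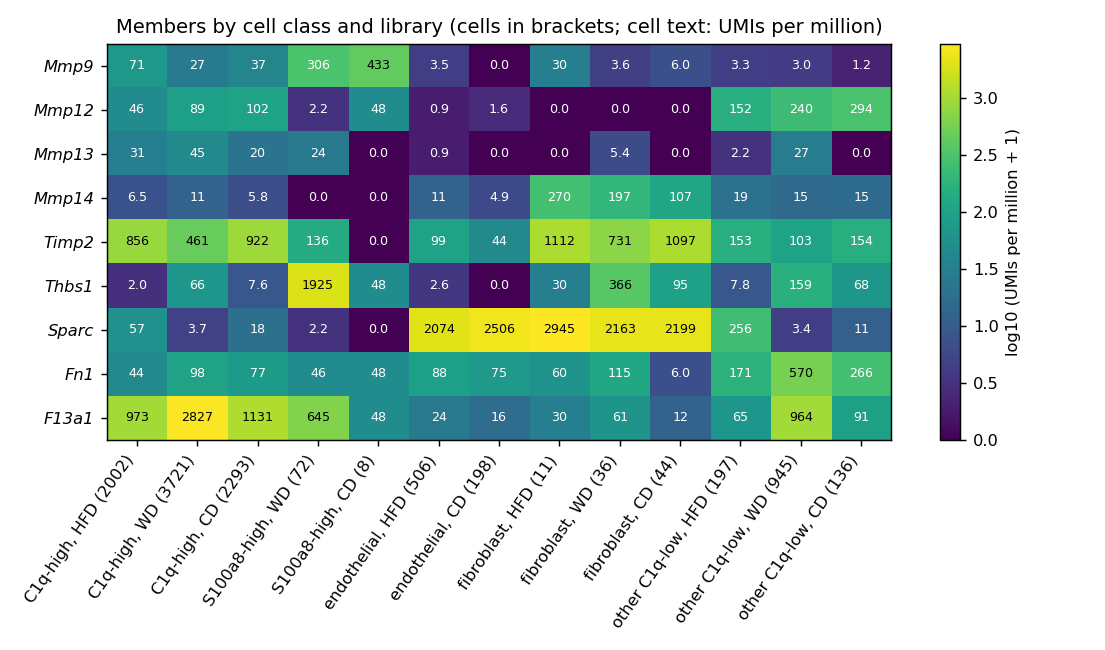
Level of each of the 9 genes (rows) in C1q-high cells and in the C1q-low classes of each library (columns, number of cells in brackets). Cell text is CPM and colour log10 of CPM plus 1; classes of 1 cell (HFD S100a8-high, WD endothelial) are not drawn, and Sparc stands between 2074 and 2945 in the endothelial and fibroblast columns.

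Between diets, HFD and CD were made with the same software and are set side by side first. Of the 9 genes, 3 were at least 1.5-fold higher (Mmp9, Mmp13, Sparc) and 3 at least 1.5-fold lower (Mmp12, Thbs1, Fn1) in HFD than in CD C1q-high cells. Of all 8541 genes with at least 100 UMIs over both libraries, 3.22% were higher and 5.00% lower. The median log2 ratio was -0.11 for the 9 genes and -0.04 for all genes. No test is possible with 1 library per diet, and the intervals of these ratios cover counting error only.

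Mmp9 stood at 70.6 CPM in HFD and 36.9 in CD, a ratio of 1.92 (1.68 to 2.19). The ratio was 2.85 (2.37 to 3.43) in Cd209f-positive cells and 1.35 (1.10 to 1.65) in Cd209f-negative cells. It was 2.12 (1.83 to 2.46) in Ccr2-negative cells, while in Ccr2-positive cells Mmp9 was lower in HFD, at a ratio of 0.411 (0.234 to 0.681) from 18 and 105 UMIs. In Tmem119-positive cells the ratio was 0.483 (0.201 to 1.05) from 9 and 29 UMIs, and in Tmem119-negative cells 2.03 (1.77 to 2.33). Near-empty barcodes held 38.3 CPM of Mmp9 in HFD and 10.2 in CD, while HFD endothelial cells held 3.47 and CD endothelial cells 0 (at 3 counts, up to 4.90). Mmp13 was at 30.6 CPM in HFD and 20.3 in CD, a ratio of 1.51 (1.24 to 1.83) whose interval spans the 1.5-fold limit. Without the 1% of cells richest in it the ratio was 1.40.

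Mmp12 stood at 45.8 CPM in HFD and 102 in CD, 2.24-fold lower in HFD (1.97 to 2.55). Without the 1% of cells richest in it, 21 in HFD and 23 in CD, it was 1.46-fold lower (1.20 to 1.80), and without the deepest 5% of cells the log2 ratio was -0.35. Fn1 stood at 44.0 CPM in HFD and 76.6 in CD, 1.74-fold lower in HFD (1.52 to 1.996). Without the 1% of cells richest in Fn1 it was 2.87-fold lower (2.30 to 3.62), while among cells with at most 5% mitochondrial UMIs the log2 ratio was -0.56, short of 1.5-fold. Within Ccr2-positive cells Fn1 stood at 159 CPM in HFD and 189 in CD, 1.19-fold lower (1.03 to 1.37), and within Ccr2-negative cells at 3.28 and 12.9, 3.94-fold lower (2.31 to 7.18). Both Ccr2-negative values, from 16 and 94 UMIs, lay below the 19.5 and 24.2 CPM of near-empty barcodes, so the ratio between them cannot be read. Mmp12 was 1.30-fold lower (1.11 to 1.53) in HFD than in CD Ccr2-positive cells and 3.68-fold lower (2.95 to 4.63) in Ccr2-negative cells. Ccr2-positive cells made up 19.9% of HFD and 27.9% of CD C1q-high cells at median depths of 2951 and 4318 UMIs, and the part of this share in the summed levels was not tested.

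Thbs1 was 3.88-fold lower in HFD (2.15 to 7.57), from 13 UMIs in HFD and 87 in CD, and the HFD level lay at that of near-empty barcodes. Sparc stood at 56.7 CPM in HFD and 18.1 in CD, 3.13-fold higher (2.64 to 3.73). The summed endothelial markers moved with it in C1q-high cells, with all 10 detected in each library, at 428 CPM in HFD, 31.5 in WD and 261 in CD. The 8 fibroblast markers summed to 251, 103 and 214, a much smaller difference between HFD and CD than that of Sparc. Without the C1q-high cells that passed another class's level the Sparc log2 ratio was 1.16, against 1.65 with them. In Ccr2-negative cells Sparc was 6.00-fold higher in HFD than in CD (4.70 to 7.74), and in Ccr2-positive cells the ratio was 0.850 (0.588 to 1.21). The HFD and CD levels were 67.7 and 11.3 CPM in Ccr2-negative and 25.6 and 30.1 in Ccr2-positive cells. All of them, like the summed levels, lay below the 109.9 and 42.5 of near-empty barcodes, so these Sparc ratios cannot be read. The richest HFD cell alone held 134 of the 374 Sparc UMIs.

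The other 3 genes stayed within 1.5-fold between HFD and CD. F13a1 had a ratio of 0.861 (0.835 to 0.887), and within Lyve1-positive cells 1.01 (0.978 to 1.05), where it stood at 1615 CPM in HFD and 1594 in CD. Timp2 had a ratio of 0.929 (0.899 to 0.959), and 1.01 (0.964 to 1.05) within Lyve1-positive cells. Mmp14 had a ratio of 1.12, with an interval from 0.748 to 1.68 that does not exclude a change of 1.5-fold.

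**Figure D4:**
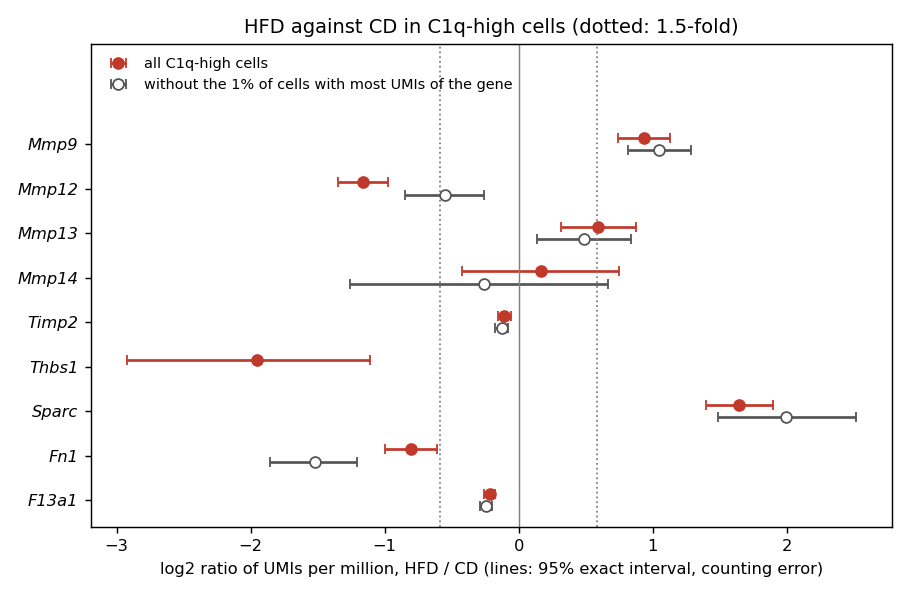
log2 ratio of CPM between HFD and CD C1q-high cells (x axis) for each of the 9 genes, with exact 95% intervals for counting error. Filled points use all C1q-high cells and open points leave out the 1% of cells with most UMIs of the gene, where Mmp12 moves inside the dotted 1.5-fold lines; Thbs1 has no open point because 0 HFD UMIs were left.

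In WD, 4 of the 9 genes were at least 1.5-fold higher (Mmp13, Mmp14, Thbs1, F13a1) and 2 lower (Timp2, Sparc) than in CD, where 44.5% of 11800 genes were higher and 28.3% lower. Against HFD, 5 were higher (Mmp12, Mmp14, Thbs1, Fn1, F13a1) and 3 lower (Mmp9, Timp2, Sparc), where 45.0% of 11714 genes were higher and 26.7% lower. These comparisons share libraries with each other and with that of HFD and CD. Most genes passed the limit in each, so the count of the 9 genes is near the background. Over all genes the ratio of WD to CD changed with intron length, and the median log2 ratio of a decile (an equal-sized class of genes ordered by intron length) ran from -0.74 in the decile with the shortest introns to 2.67 in that with the longest. In HFD against CD the deciles stayed between -0.08 and 0.00. The diet, the software version and the library cannot be told apart in the WD values.

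F13a1, in the decile with the longest introns, stood at 2827 CPM in WD and 1131 in CD, a log2 ratio of 1.32. Less the median of its decile the log2 ratio was -1.34, so that its direction turned. Thbs1 stood at 66.3 CPM in WD, against 7.64 in CD, and at 8.68-fold (7.02 to 10.9) its log2 ratio of 3.12 compared with a median of -0.31 in its decile. Summed neutrophil markers in C1q-high cells were at 124 CPM in HFD, 1244 in WD and 851 in CD, and their part in the Thbs1 level was not tested. Timp2 was lower in WD, at 461 CPM against 922 in CD (interval 1.96- to 2.05-fold lower), in a decile with a median of 1.14. Sparc was lower in WD by 4.84-fold (3.98 to 5.87) than in CD. Mmp13 was 2.22-fold higher (1.94 to 2.56) in WD than in CD and Mmp14 1.97-fold higher (1.52 to 2.57), both in a decile with a median of -0.54. Mmp9, Mmp12 and Fn1 stayed within 1.5-fold of CD, with log2 ratios of -0.47, -0.21 and 0.36. The direction of 2 of them depended on the settings. Fn1 was at -0.77 less the median of its decile and at -0.95 with a C1q level of 1%, while Mmp12 was 1.46-fold higher in WD (1.31 to 1.64) without the 1% of cells richest in it and had a log2 ratio of -1.22 with a C1q level of 1%. With that C1q level Mmp13 (0.32) and Timp2 (-0.55) were within 1.5-fold. Mmp9 passed the 1.5-fold limit at -0.63 with TMM scaling and at -0.81 when ratios were centred on the median gene.

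**Figure D5:**
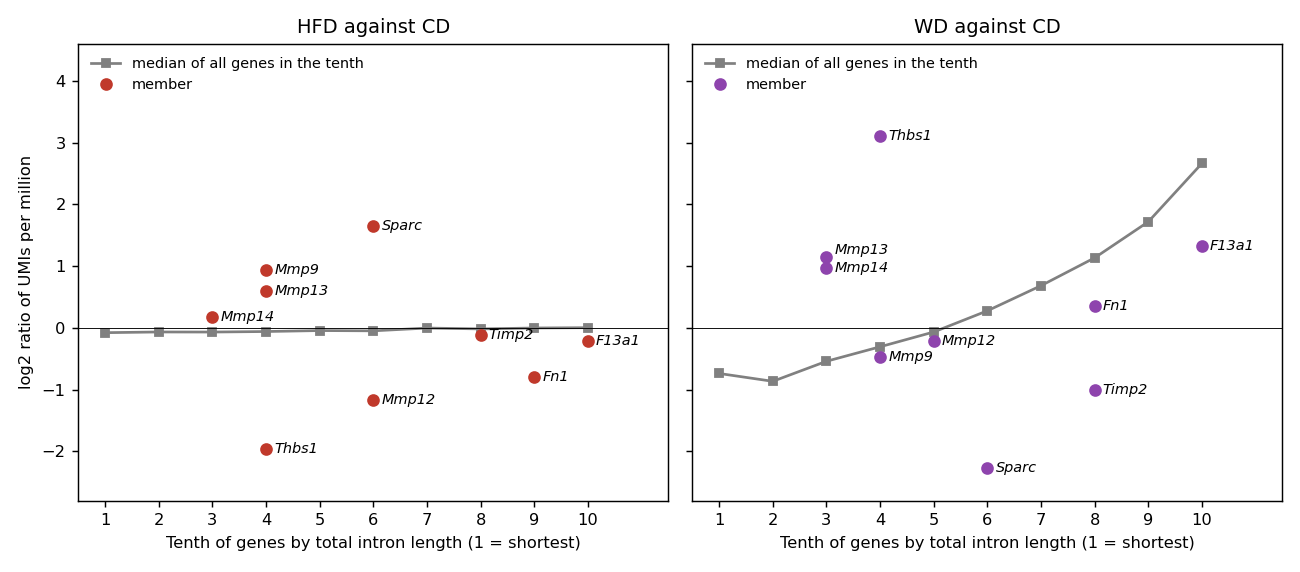
log2 ratio of CPM in C1q-high cells (y axis) by decile of total intron length (x axis, 1 is shortest), for HFD against CD and WD against CD. Squares are medians of all genes in a decile, ranging from -0.08 to 0.00 in HFD and from -0.86 to 2.67 in WD, and circles are the 9 genes, with F13a1 in decile 10.

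Other matrix genes were counted in lists of their own. Of 19 further metalloproteinases and TIMPs only 2 had enough UMIs for HFD against CD, and both inhibitors Timp4 (14.2 CPM in HFD, 2.02 in CD) and Timp3 (9.85 and 6.23) were higher in HFD. The endothelial markers given above for Sparc were higher in HFD than in CD C1q-high cells too, and the fibroblast markers less so. The part of both in the genes of these lists was not tested. Of 12 matrix glycoproteins and proteoglycans tested, 3 were higher (Dcn, Sparcl1 and Bgn) and 1 lower, Spp1, which encodes osteopontin, at 86.1 CPM in HFD and 206 in CD. Dcn, decorin, stood at 42.1 CPM in HFD and 16.9 in CD, and it is one of the fibroblast markers used above. Of 8 ADAM and plasminogen system genes 0 were higher in HFD, and those lower included Adam8 (6.21 CPM in HFD, 15.0 in CD) and Plaur, the urokinase receptor (16.4 and 37.5). Of 3 collagens 1 was higher, Col4a1, and of 10 cross-linking and processing genes 2, Serpinh1 and Pcolce. Of 22 matrix receptors 0 were higher and 3 lower: Cd36, Itgb7 and Itgax.

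In the splits the same lists gave calls in both directions. Of 21 matrix receptors tested in the Lyve1 split, 4 rose and 7 fell in positive cells. Mrc1, the mannose receptor that also takes up collagen fragments (0.97), and Stab1 (0.83) were among those that rose, while Itga6 (-1.40) and Itgax (-1.29) were among those that fell, all as log2 ratios with edgeR adjusted p below the threshold of 0.05. Spp1 fell by 2.14 on the log2 scale in Lyve1-positive cells (edgeR adjusted p = 0.000238), and Gas6, a ligand of the efferocytosis receptors, rose by 1.45 (edgeR adjusted p = 6.79e-05). Of 6 collagens tested there, 0 rose and 4 fell, among them Col14a1 (log2 ratio -1.28, edgeR adjusted p = 2.4e-05). In Ccr2-positive cells 2 of 5 further metalloproteinases and TIMPs rose, Mmp19 (log2 ratio 1.72, edgeR adjusted p = 0.00084) and the inhibitor Timp1 (1.29, edgeR adjusted p = 0.0208). Timp1 was higher in WD and CD only, at 0.581, 3.91 and 4.61 CPM in Ccr2-positive cells of HFD, WD and CD against 1.02, 1.30 and 2.20 in Ccr2-negative cells. Adam8 (1.30) and Plaur (0.87) rose there as well, and Adamts1 (-1.85), Adam9 (-0.45) and Serpinf1 (-0.39) fell, of 10 genes of their list. Adamts1 was near the floor, at 1.74, 1.07 and 0.728 CPM in Ccr2-positive cells of HFD, WD and CD. The HFD and CD values are those of 3 counts, and Ccr2-negative cells had 2.46, 4.30 and 2.89 CPM. Of 23 matrix receptors 5 rose and 6 fell in Ccr2-positive cells, with Itgb7 (2.60) and Itgax (2.42) on one side and Stab1 (-1.16) and Mrc1 (-0.83) on the other. In Cd209f-positive cells 1 of 15 matrix glycoproteins rose, Gas6, and 4 fell. In Tmem119-positive cells Mmp8 was the 1 further metalloproteinase of 5 that rose (log2 ratio 1.31, edgeR adjusted p = 0.0147), and 0 fell. Mmp8 had 0 CPM in both HFD groups, so that this ratio rests on WD (23.5 CPM in Tmem119-positive, 10.1 in Tmem119-negative cells) and CD (8.75 and 1.87). Mmp8 is the neutrophil collagenase, and the part of the neutrophil-marked C1q-high cells in it was not tested.

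The pattern of each gene was set beside those of 6838 genes with at least 100 UMIs in each library, over 23 groups of at least 20 cells, with log2 of CPM plus 1 centred within library. The groups share libraries, and the correlations are descriptions. Closest to Sparc was Igfbp7 (Pearson's r = 0.99), to F13a1 Cd163 (r = 0.97), to Timp2 Igf1 (r = 0.97), to Mmp12 Psap (r = 0.96), to Mmp13 Gm5086 (r = 0.95), to Mmp9 Slc40a1, the iron exporter ferroportin (r = 0.91), and to Fn1 Psma7 (r = 0.79). Mmp14 and Thbs1 themselves had only 82 and 24 UMIs in their poorest library, and closest to them were Smarcb1 (r = 0.89) and Ndufaf7 (r = 0.80). Among the 9 genes themselves, F13a1 correlated with Mmp13 (r = 0.72) and Mmp9 (r = 0.69), and Sparc ran against F13a1 (r = -0.77) and Mmp12 (r = -0.75). The 23 groups include C1q-low classes, and among C1q-high cells F13a1 and Mmp13 moved in opposite directions in the Lyve1 split. Within single C1q-high cells thinned to 1000 UMIs, Mmp12 was found in 0.201% of HFD cells with F13a1 (0.0244 to 0.724) and in 4.47% without it (3.28 to 5.93). The shares were 2.57% and 6.65% in WD, and 1.15% and 6.18% in CD. Mmp13 was also rarer in WD cells with F13a1, while in HFD and CD the intervals overlapped. In HFD it was found in 1.71% of cells with F13a1 (0.998 to 2.72) and 3.57% without it (2.52 to 4.92). Its shares were 2.54% (1.99 to 3.18) and 6.18% (4.65 to 8.02) in WD, and 1.91% (1.24 to 2.81) and 2.74% (1.81 to 3.96) in CD. In WD 21.4% of cells with Fn1 also had Mmp12 (13.9 to 30.5), against 2.99% of cells without Fn1, and in CD 20.3% (11.8 to 31.2) against 2.75%. In HFD the same shares were 5.56% (0.680 to 18.7), 2 of 36 cells, and 2.29%.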

How the data were processed

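Single-cell RNA of sorted heart macrophages was measured in 3 libraries, 1 per diet. The values are counts of UMIs per gene and barcode, deposited by the authors as sparse matrices; per the file headers they came from software version 3.0.1 for HFD and CD and 7.2.0 for WD, and the submitters' processing notes name GRCm38 and Seurat. No label or header says whether intronic reads were counted. The HFD and CD files list 737280 barcodes each and the WD file 6885. Library totals were 16630481 UMIs in HFD, 79269380 in WD and 17464149 in CD, and the limit on mitochondrial UMIs removed 11.9%, 26.1% and 6.33% of the barcodes that passed the other limits. No doublet caller was run.

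UMIs were summed per library and cell group over the 30406 shared genes. Diets were compared as ratios with exact conditional intervals at 95%, with 1.5-fold as the limit among genes with at least 100 UMIs over both libraries. The splits were tested with edgeR 4.0.16 in R 4.3.3 (TMM, filterByExpr, glmQLFit and glmQLFTest, library as a term) on 6 sums, with Benjamini-Hochberg adjustment over all genes, a threshold of 0.05 and an SE taken as the log2 ratio over the root of F. The library term pairs the positive and negative cells because they come from the same library. Intervals and floors (3 counts) cover counting error only. C1q-low cells were classed by shares of UMIs: S100a8 and S100a9 at 1%, endothelial markers at 0.5%, fibroblast markers at 1%. The edgeR fit was tested on simulated data.

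The alternatives were DESeq2 1.42.0, RLE scaling, no filter, no library term, each library left out, other limits on cells and C1q, thinning, equal weights, other scalings, intron length and doubled class thresholds. Leaving out the richest 1% of cells and splitting at 2 UMIs were added after seeing the data. The members and the lists were chosen with earlier results of these data known. Named are the 9 members and, from each of the 6 other lists, at most the 3 called genes with the largest ratio per direction. 1 gene that this rule names is not reported here.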

Additional observations from a re-analysis of the deposited data

Results flagged for a closer look

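Sparc moved in opposite directions in different libraries in 2 splits, and these differences between libraries were not tested. In the Lyve1 split its log2 ratio of positive to negative cells was 0.83 in HFD and -0.53 in CD, a difference of 1.36. In the Ccr2 split it was -1.40 in HFD and 1.42 in CD, a difference of -2.82, and 0.42 in WD, which differs from HFD by 1.83. The Sparc UMIs behind the Ccr2 ratios were 44 in positive and 330 in negative cells of HFD, 96 and 128 in WD, and 124 and 82 in CD. In HFD 2 C1q-high cells past the fibroblast level held 37.4% of them, and in CD 18 cells past the endothelial level held 63.6%. The HFD and CD levels in both splits lay below the 109.9 and 42.5 CPM of near-empty barcodes.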

How the results depend on the processing

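Of the counts of members called, 151 of 180 alternative values stayed within 1.5 times the main count, and of the single-gene values 644 of 829 kept their call or moved by less than their error. Members lower in HFD than in CD numbered 1 instead of 3 with a C1q level of 1%, at most 5% mitochondrial UMIs, without the deepest 5% of cells, and without the richest 1% of cells. In the last of these Thbs1 had 0 HFD and 28 CD UMIs and was left out of the count. With 13 and 87 UMIs it lay at the limit of 100, and it had a value in 5 alternatives, against 12 for Mmp9. A smaller count can thus reflect a gene that was not tested. Members higher in WD than in HFD numbered 2 instead of 5 with a C1q level of 1%, where the Mmp12 log2 ratio turned to -0.72. Members lower in WD than in CD numbered 1 instead of 2 in thinned cells and 4 less the median of the intron decile, where F13a1 turned to -1.34 against CD and -1.08 against HFD. Without the replicate block (the library term) 0 members rose and 0 fell in each of the 4 splits by edgeR, while 217, 116, 82 and 290 genes had an unadjusted p under 0.05 in the Lyve1, Cd209f, Tmem119 and Ccr2 splits. DESeq2 called 2 members lower in the Cd209f split (4 by edgeR), 1 higher in the Tmem119 split (2) and 2 higher in the Ccr2 split (4), and over all genes 112 lower in the Cd209f split against 374. In thinned cells, classed again by their thinned counts, 1 member rose and 0 fell in the Cd209f split, 0 rose in the Tmem119 split and 2 rose in the Ccr2 split. In the Tmem119 split 4 rose with a C1q level of 1% and 1 when positive cells needed 2 UMIs. Leaving out each library gave 1 to 3 members higher (3 without CD) and 1 to 3 lower (3 without WD) in the Tmem119 split, and 2 to 5 higher in the Ccr2 split, with 2 without WD and 5 without HFD. Called values that turned, or turned into a call, were Fn1 in the Lyve1 split with a C1q level of 1% (0.18), Sparc in the Lyve1 split without the deepest 5% of cells (-0.81, edgeR adjusted p = 0.0165) and Mmp13 in the Tmem119 split in thinned cells (-0.43). Values short of a call also changed sign, among them Mmp13 in WD against HFD with a C1q level of 1% (-0.22 instead of 0.56) and Sparc in the Ccr2 split without CD (-0.39 instead of 0.20). Unless the construction shows it, the cause was not tested. With 1 library per diet and few UMIs, Thbs1 in HFD and Mmp14 in Cd209f-positive cells cannot be compared closely.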
